A study of Drosophila melanogaster with 3 samples.

Results

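Collier (Col) peaks at the Hox genes Antennapedia (Antp) and abdominal A (abd-A) and at homothorax (hth), the gene of a Hox cofactor, were taken from the deposited list of Col ChIP-seq peak summits as all summits whose gene label was exactly one of these names. They numbered 11 of 559 summits. Of these, 4 were labelled Antp, 2 abd-A and 5 hth, and all lay on chromosome arm 3R. In the study, chromatin of whole Drosophila melanogaster embryos at stage 13 to 14 was immunoprecipitated with 3 monoclonal antibodies against Col combined (Col-IP) or, as a mock, with an anti-HA antibody. The embryos of both IPs carried a lacZ reporter driven by a modified col enhancer with a consensus Col site. The labels also list input DNA. Whole embryos hold many cell types, and the list does not show in which of them Col was bound. Each group was 1 library, and the Col-IP and mock libraries were each pooled from separate IPs. No spread between replicates could therefore be measured, and no test between groups was possible.

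Col is the only Drosophila member of the COE (Collier/EBF/Olf) family of transcription factors, which bind DNA as dimers at a palindromic sequence. Hox genes encode homeodomain transcription factors that give segments along the anterior to posterior axis their identity, Antp in the thorax and abd-A in the abdomen. The hth protein is a TALE-class homeodomain factor that binds the related cofactor Extradenticle (exd), takes it into the nucleus and thereby changes which sites Hox proteins bind. In the embryo, Hox proteins are known to act on col itself, in the dorso-lateral muscles that express it and, together with hth and exd, in the thoracic neuroblast lineage that forms the Ap neurons. The list addresses the opposite direction, namely whether Col occupied chromatin at the Hox genes and hth.

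Each summit was joined to the Col site that the authors' motif search placed within 100 bp of it. A site is 15 bases long, and the core CCCNNGGG occupies bases 5 to 12, counted from 1 at the left end as listed. The sites are shown because their match to the core differed between the genes. They are written 5′ to 3′ in the orientation of the motif search, since the list does not give the genomic strand, with the core in capitals and dm3 coordinates.
Antp summit 2746972, site chr3R:2746985-2746999: ttttCCCATGGGggc
Antp summit 2778592, site chr3R:2778604-2778618: aggtCCCACGAGggc
Antp summit 2816852, site chr3R:2816858-2816872: aagtCCCAAGTGgtc
Antp summit 2834152, site chr3R:2834137-2834151: tgatCCCCTGGGagg
abd-A summit 12629962, site chr3R:12629923-12629937: tagtCTCGTGGGtgc
abd-A summit 12637632, site chr3R:12637541-12637555: gactCCCAGGACaca
hth summit 6324752, site chr3R:6324747-6324761: gacgCCCCAAGGaca
hth summit 6339012, site chr3R:6339001-6339015: tattCCCCCAGGatt
hth summit 6402142, site chr3R:6402169-6402183: aaatCCCCGAAGcgg
hth summit 6402642, site chr3R:6402686-6402700: aattCCCATTTGggc
hth summit 6462432, site chr3R:6462400-6462414: tattCCCAAAGGtgc

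Peak height was the fold enrichment that the peak caller SISSRs gave each summit, a linear ratio whose background is not named in the sources used here. Over all 559 summits it ran from 1.94 to 16.17, with a median of 2.85 and quartiles of 2.38 and 3.74. The 11 summits at the Hox genes and hth ran from 2.25 to 5.22, with a median of 2.87, close to that of the list. Of these summits, 3 reached a fold enrichment of 3 (27.3%, 95% Wilson interval 9.75 to 56.6%), against 44.9% of the list, a share inside that interval. Intervals cover the counting of summits only, and they treat the summits as independent although several belong to the same gene. The read depth behind a summit is unknown because the list holds no counts.

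Antp, which specifies thoracic segments and is expressed in the mesoderm and the ventral nerve cord, had the highest summits among these genes. Its first summit, at position 2746972 and classed as intragenic, had a fold enrichment of 5.22, rank 57 of 559. The summit at 2834152, on the 5' side of the gene, had 4.72 (rank 79). The remaining summits were lower and intragenic, with 2.87 at 2778592 (rank 274) and 2.37 at 2816852 (rank 425). The high values thus stood at both ends of the series and the low ones between them. The highest summit of Antp was 1.83 times the list median and the lowest 0.832 times.

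At abd-A, which specifies abdominal segments, the stronger summit lay on the 3' side of the gene at 12629962 and had a fold enrichment of 2.96 (rank 256). The weaker one, intragenic at 12637632, had 2.25 (rank 460), and 82.1% of all summits were higher. The study marks the gene assignment of this weaker summit as curated. Neither reached 3.

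The 5 hth summits ran from 2.42 to 3.57, nearly the range between the quartiles of the list. The highest had 3.57 at 6402142 (rank 164), the next 2.96 at 6339012 (rank 256), and the remaining ones 2.58 at 6402642, 2.56 at 6324752 and 2.42 at 6462432. All were classed as intragenic except the one at 6324752, which lay on the 3' side of hth. The median of hth was 2.58, below the list median, while that of Antp was 3.795. The ranges of the 2 genes overlapped, and with 1 library the difference could not be set against an error.

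**Figure D1:**
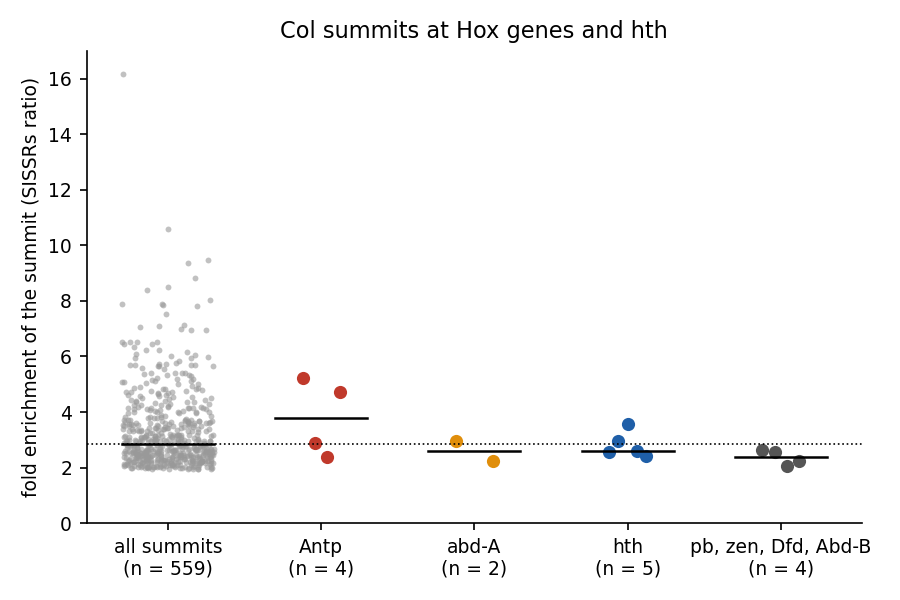
Fold enrichment of each Col summit (vertical axis, SISSRs ratio) for all 559 summits and for those labelled Antp, abd-A, hth, or pb, zen, Dfd and Abd-B; solid bars are medians and the dotted line is the list median of 2.85. The Antp summits at 5.22 and 4.72 stand above the other Hox and hth summits, which lie between 2.07 and 3.57.

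The summits of hth and Antp were spread over long stretches. From the first to the last summit, hth covered 137680 bp, the widest span of the 95 labels with several summits, whose median was 10610 bp. Without its highest-coordinate summit, with a fold enrichment of 2.42, the span of hth was 77890 bp (rank 5). Antp covered 87180 bp (rank 5 of 95), behind bru-3 (115060 bp), sick (105600 bp) and pum (98050 bp) as well as hth. Without its lowest-coordinate summit, the highest one, Antp covered 55560 bp (rank 10). The abd-A summits were 7670 bp apart, rank 29 of the 66 labels with exactly 2 summits. Gene length was not modelled, and the part it has in these spans was not tested.

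By number, hth shared rank 4 of 409 labels with CG34380 and olf413, behind sick with 9, sli with 7 and Oaz with 6. Antp had 4, like CG14872, CG42342, jing, pum, px and snky. Of all labels, 3.18% had 4 or more summits.

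Within hth, 4 intervals separated neighbouring summits. The widest was 63130 bp, between 6339012 and 6402142, and the next 59790 bp, between 6402642 and 6462432. They were ranks 3 and 4 among the 150 intervals between neighbouring summits of one label, whose median was 4850 bp. The interval of 14260 bp separated the outermost pair on the low side. The shortest was 500 bp, between 6402142 and 6402642, where the summits had 3.57 and 2.58 and the centres of their sites were 517 bp apart. Intervals of at most 1000 bp made up 15.3% of the 150. At Antp the intervals were 31620, 38260 and 17300 bp, and none of them was short.

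**Figure D2:**
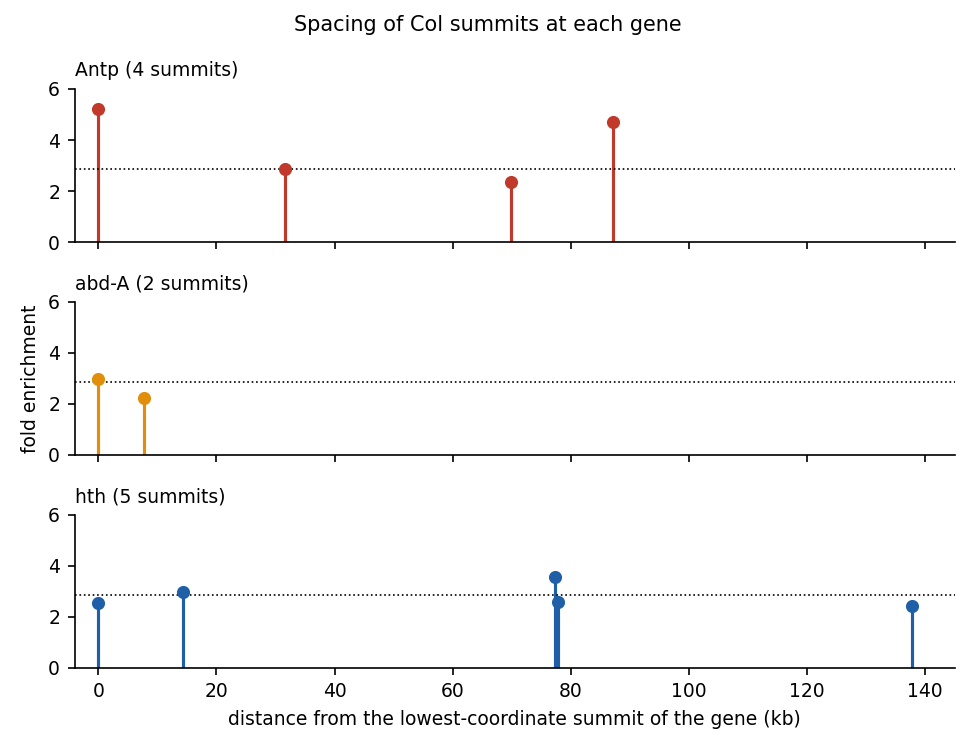
Col summits of Antp, abd-A and hth by distance in kb from the lowest-coordinate summit of the same gene (horizontal axis) and fold enrichment (vertical axis, SISSRs ratio); the dotted line is the list median. The high Antp summits lie at the ends of its series, and hth has a pair 500 bp apart between intervals of 63130 and 59790 bp.

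**Figure D3:**
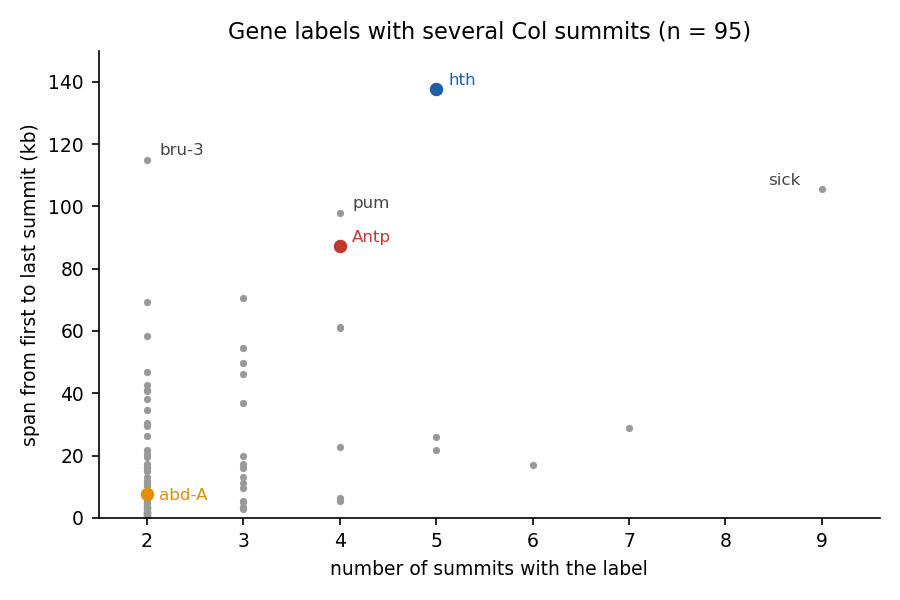
Number of summits (horizontal axis) against the span from first to last summit in kb (vertical axis) for the 95 gene labels with several summits, 1 point per label. The span of hth is the widest at 137680 bp, Antp follows at rank 5, and abd-A, at 7670 bp, is at rank 51.

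No summit of another label lay between the first and the last summit of any of the 3 genes. On the low-coordinate side of hth, the next summit, labelled Cyp12e1 (a cytochrome P450 gene, next to hth in the RefSeq gene order of Release 6), was 3040 bp away and had a fold enrichment of 2.92. On the other side the next was 395220 bp away, labelled CG34114 (2.18). A label names the overlapping gene or the nearest start of transcription, or in some cases a curated choice, and does not show which gene a bound region acts on.

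All 11 summits had a site within 100 bp, against 97.0% of all summits. This was not independent of the summits, since the search was run on them and returned at most 1 site for each window of 200 bp. The centre of the site was within 25 bp of 7 summits (63.6%), close to the 62.4% of the list, and within 50 bp of 9, against 80.7%. All 4 Antp sites were among these, 8 to 20 bp away. The hth sites were 2, 4, 25, 34 and 51 bp from their summits. At abd-A the distances were 32 and 84 bp, the latter at the weaker, intragenic summit.

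The full core, with all 6 specified bases of CCCNNGGG, was present in 2 of the 11 sites (18.2%, Wilson interval 5.14 to 47.7%), against 42.6% of the 542 sites of the list. The interval includes that share, but it treats the sites as independent although several belong to the same gene. By gene, the full core was present in 2 of 4 sites at Antp, 0 of 2 at abd-A and 0 of 5 at hth. At least 5 of the bases were present in 8 sites, against 87.3% of the list. The longer palindrome that the paper cites for binding of EBF in vitro specifies 12 bases, and it ranked the sites differently. At best match, the hth site at summit 6339012 had 10 of these bases, the most of the 11 sites. The 2 sites with the full core had 8, as did the hth site at summit 6462432. The remaining sites had 6 or 7. Both full cores were at Antp and belonged to its high summits, ttttCCCATGGGggc at 5.22 and tgatCCCCTGGGagg at 4.72. Both also contained CCCNNGGGA when either strand was read, as did 37.5% of all sites. The other Antp sites each lacked base 11 of the core, as G11A at the summit of 2.87 and G11T at that of 2.37. Among all sites, those with the full core had a median fold enrichment of 3.07, those with 5 bases 2.785 and those with 4 or fewer 2.67. The order at Antp was thus the same as in the list as a whole, in which each class was wide. At abd-A the site of the summit of 2.96 had 5 core bases and that of the summit of 2.25 had 4, the same order. The order did not hold at hth, whose highest summit, 3.57, had a site with 4 core bases, aaatCCCCGAAGcgg.

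**Figure D4:**
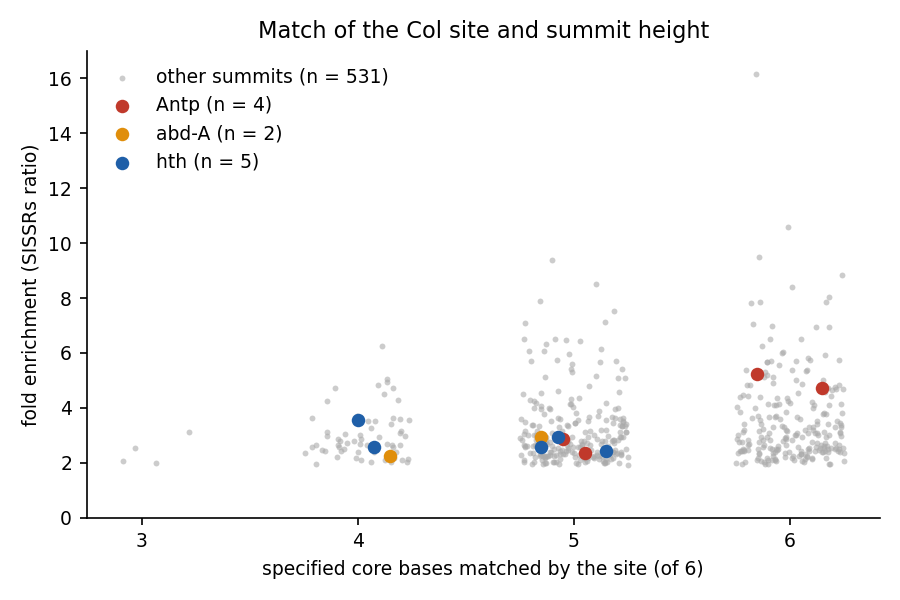
Fold enrichment (vertical axis, SISSRs ratio) against the number of specified core bases that the site of the summit matches (horizontal axis, of 6; points are spread sideways) for the 542 summits with a site. The only sites with 6 matched bases among the 3 genes are those of the high Antp summits; those of hth and abd-A match 4 or 5.

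The sites of hth shared a feature. All 5 held CCC on the left side of the core, as did 10 of the 11 sites and 88.9% of the list. Since no hth site had the full core, none could hold GGG on the right side, which 48.2% of all sites did. Of the 13 labels with 4 or more summits, CG14872 also had no site with GGG there and none with the full core. The missing base was at the same place each time: G at base 10 was replaced by A in 4 sites (G10A) and by T in 1 (G10T). The latter, aattCCCATTTGggc, also had G11T, and aaatCCCCGAAGcgg also had G11A. In the list, base 10 was G in 79.2% of the sites, A in 14.6% and T in 3.14%. Among the same 13 labels, hth was the only one with no G at base 10. The other 12 had it in at least 2 sites each and in 50 of 59 together (84.7%). This position was singled out after the sites of hth were seen to lack it, and no test was made of it. The search chose the orientation in which each site is listed, so left and right sides are not independent of it.

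At abd-A the mismatches lay on different sides only in the orientation in which the search listed the sites. As listed, the site of the stronger summit, tagtCTCGTGGGtgc, kept GGG and had C6T on the left side. In that orientation it was the only one of the 11 without CCC there. Read on the opposite strand, its core is CCCACGAG, with CCC on the left and G11A, a change also present at the weaker summit. That of the weaker summit, gactCCCAGGACaca, kept CCC and had G11A and G12C.

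Among the 9 sites without the full core, 2 held CCC and GGG at a wider distance. In aggtCCCACGAGggc at Antp and in aattCCCATTTGggc at hth, 4 bases in place of 2 separated them. The pattern CCCNNNNGGG, read on either strand, was found in 3 of the 11 sites (27.3%) and in 7.56% of all sites. The third was an Antp site that also held the full core. Spacers of 1 and 3 bases were each found in 1 site (9.09%), against 24.0% and 19.2% of the list. Spacers of 0, 5 and 6 bases were found in none, against 6.83%, 1.66% and 0.185%. The spacer of 4 bases was looked for after the sites were seen, and whether Col binds it was not measured.

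The other genes of the Hox complexes were searched for in the same list. Antp and abd-A were chosen as labelled genes. Of the other 10 homeobox genes of these complexes, 4 labelled a summit, beside 2.92% of all protein-coding genes in the RefSeq table. Gene length was not taken into account, and the list of genes was chosen with results of these data known. Those labelled were proboscipedia (pb), which acts in the mouthparts, zerknüllt (zen), which acts in the extraembryonic tissue, Deformed (Dfd), which acts in the head, and Abdominal-B (Abd-B), which acts in the posterior abdomen. Each had 1 summit, at 2.65 for pb, 2.55 for zen, 2.07 for Dfd and 2.24 for Abd-B. All of these lay under the list median, and Antp was the only one of the 12 Hox complex genes with a summit of at least 3. No summit was labelled lab, zen2, bcd, Scr, ftz or Ubx, under current or older names. The list cannot show whether Col bound there below the calling threshold.

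The sites of zen, Dfd and Abd-B held the full core, and that of pb held 5 of its bases. They are shown for comparison with those of Antp.
pb summit 2561952, site chr3R:2561855-2561869: aactCCCCAGAGggg
zen summit 2577852, site chr3R:2577837-2577851: gcttCCCCTGGGagg
Dfd summit 2624912, site chr3R:2624910-2624924: atctCCCAGGGGaga
Abd-B summit 12719252, site chr3R:12719272-12719286: atttCCCATGGGtcg
The zen site shared an unbroken run of 12 bases with the upstream Antp site at 2834152, and 3 of the 542 sites held this run on either strand. The Abd-B site shared a run of 11 bases with the Antp site at 2746972, which 5 sites held. The Dfd site, read on the opposite strand, shared a run of 11 bases with the Antp site at 2834152, which also 5 sites held. In the listed orientation alone, unlike the runs, the core CCCATGGG was present in 3.87% of all sites and CCCCTGGG in 3.69%. The Dfd site, which holds CCCCTGGG on the opposite strand, was not counted in the latter share. Sites that shared such runs therefore stood at summits of different height, 4.72 at Antp, 2.55 at zen and 2.07 at Dfd.

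Along the Antennapedia complex, the RefSeq order has 20 protein-coding genes from lab to Antp, and 5 of them labelled 8 summits. The only gene among these 5 outside the homeobox list was Ama, which encodes an immunoglobulin-domain adhesion protein (fold enrichment 2.53). On the low-coordinate side of Antp, the next summit was that of Dfd, 122060 bp away. On the other side, CG14598 (2.94) was 438280 bp away. In the bithorax complex, 3 of the 6 protein-coding genes from Ubx to Abd-B labelled 4 summits: abd-A with 2, Abd-B with 1 and Glut3, which lies between Ubx and abd-A in that order, with 1. The Glut3 summit (2.37) was 23230 bp from the nearest abd-A summit, and that of Abd-B was 81620 bp away on the other side.

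Among the 6 TALE homeobox genes other than hth, 2 labelled summits, beside the 2.92% of all protein-coding genes. These were the Iroquois genes caup, with a single summit at 4.17, and mirr, with 2.64 and 2.3. No summit was labelled exd, the partner of hth, nor achi, vis or ara. In the cascade that specifies the thoracic Ap neurons, 4 of 13 genes other than Antp and hth labelled summits, beside the same 2.92%: the col gene itself (listed under its synonym kn, from 2.66 to 3.55), ap (2.02 and 5.4), eya (2.39 and 3.99) and cas (2.2), the gene of a temporal factor of neuroblasts. The highest peak of these genes was that of ap, while that of Antp was 5.22. The genes col, ap and eya were put on the list with their peaks known, so their labels are no independent count. No summit was labelled dimm, grh, sqz, nab, svp, dac, lbe, Nplp1 or exd. Of 15 partners and regulators of Hox genes, 4 had labels, again beside 2.92%: tsh (2.78) and disco (2.05), which encode zinc finger proteins, the homeobox gene cad (3.07) and the Polycomb group gene Psc (2.44). The other 11, tio, disco-r, en, Pc, trx, ph-p, hb, Kr, gt, kni and opa, labelled none. The paper reports that genes of transcription regulators are enriched among Col targets as a whole. It adds that large regulatory regions of developmental genes could in part account for this. The lists were not compared with such genes alone.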

How the data were processed

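Only the deposited list of Col summits was used. To make it, the authors aligned reads to dm3 with Bowtie 0.12.7 (submitters' processing notes and methods), removed plasmid sequences, and called peaks with SISSRs on the pooled Col-IP library at lenient thresholds, keeping one read per coordinate. For each summit the deposited file gives its position, the gene assigned to it and the fold enrichment, a linear ratio. All positions lay on a grid of 10 bp. No reads, counts, mock or input values were analysed here.

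Sites were read from the study's supplementary site list and joined to a summit where their centre lay no more than 100 bp from it. Intragenic, 5' and 3' classes are those of the study. Of 414 names in the labels, 409 were matched to RefSeq (Release 6), used for names and gene order only. Since there was 1 library, values were described without tests. Intervals are 95% Wilson intervals. The alternatives tried were a minimum fold enrichment of 3, merging of near summits, shorter distances, other readings of the core and trimmed spans. The text names all summits of the 3 genes, the genes of the lists, the adjacent summits and the labels with as many summits or as wide a span as hth or Antp; those that match or exceed only abd-A are given as ranks. The members and lists were chosen with earlier results of these data known. Python 3.11.15, scipy 1.17.1 and matplotlib 3.10.9 were used, and the joins were tested on simulated data.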

Additional observations from a re-analysis of the deposited data

How the results depend on the processing

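With a fold enrichment of at least 3, the summits at the 3 genes fell from 11 to 3 and the labelled genes among the Hox complex genes, hth and exd from 7 to 2, as fewer summits must give. Merging within 200 bp left 11 and within 1000 bp left 10. Sites within 25 bp numbered 7. Allowing 5 of 6 core bases raised the sites from 2 to 8, a looser pattern, and any spacer of 0 to 6 bases, an alternative chosen after seeing the data, raised them to 4. Reading either strand left 2. Spans fell to 55560 bp at Antp without the lowest-coordinate summit and to 77890 bp at hth without the highest-coordinate one, by construction. The median fold enrichment was 2.58 without Antp and 2.915 without hth. No paired analysis was possible because each group has a single library. The error of each peak height cannot be given, as the list has no counts.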
